A study of Mus musculus with 199 samples.

Results

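Gene expression in large liver tumours was compared with that in liver tissue across all genes, in a mouse model of liver cancer on a fatty liver. The comparison used every library titled as a large liver tumour (25) or as liver tissue (15) of this model, 40 of the 199 libraries of the series. All came from male wild-type C57BL/6 mice of an in-house colony. Mice with tumours had received the liver carcinogen diethylnitrosamine (DEN) and the ALIOS diet, a diet rich in fat and sugar that gives a fatty, inflamed liver. The liver tissue libraries carry DEN ALIOS in their titles, but their treatment label reads Normal and the protocol speaks of healthy tissue, so which livers they came from cannot be settled from the labels. Pieces were snap frozen whole, so each library mixes hepatocytes, tumour cells, vessels, stroma and immune cells, and no label says how large a large tumour was. No label names an animal either, so several libraries may share a mouse, and p-values measure the spread between these samples, part of which may be technical.

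The adult hepatocyte makes plasma proteins, bile acids, glucose and urea, burns and stores fat, and clears drugs. It does so unevenly along the lobule, where cells around the central vein receive Wnt signals and express glutamine synthetase and drug-metabolizing enzymes. Liver tumours of mice after DEN often carry mutations that activate the MAPK cascade, and hepatocellular carcinoma is known for the return of fetal genes such as the one for alpha-fetoprotein. A tumour also builds its own vessels and matrix and changes which immune cells are present.

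Each library held 12459307 to 21850190 counts assigned to genes (median 15295580). Expression is given below in CPM, counts scaled to the size of each library with TMM factors. Fold changes are log2 values ± standard error of large tumours over liver tissue from edgeR's quasi-likelihood fit with the sequencing run as a term. A gene is said to have risen or fallen where its Benjamini-Hochberg adjusted p from that fit was under 0.05. Where 2 medians stand in brackets, the first is of liver tissue and the second of large tumours. Mitochondrially encoded genes took 2.89% to 4.04% of gene counts in liver tissue and 1.18% to 2.69% in large tumours, with no overlap. The share of alignments that were not unique had a median of 54.6% in liver tissue (50.8% to 60.7%) and 47.8% in large tumours (42.0% to 51.6%). The part of these library measures in the results below was not tested.

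Large tumours 16 and 20 stood apart from the other 23. Of the 179 genes that rose at least 8-fold, 55 lay above every liver tissue library in large tumour 16 and 112 in large tumour 20, against 144 to 175 (median 166) in each of the others. Of the 158 genes that fell at least 8-fold, 138 lay below every liver tissue library in large tumour 16 and 78 in large tumour 20, against 127 to 158 (median 156). Among liver tissue libraries, number 2 was the highest for 93 of the 179 genes that rose at least 8-fold. Numbers 2 and 3 were the lowest for 39 and 47 of the 158 that fell. Counts over all genes, and some of the results that rest on these libraries, are also given without them.

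**Figure D1:**
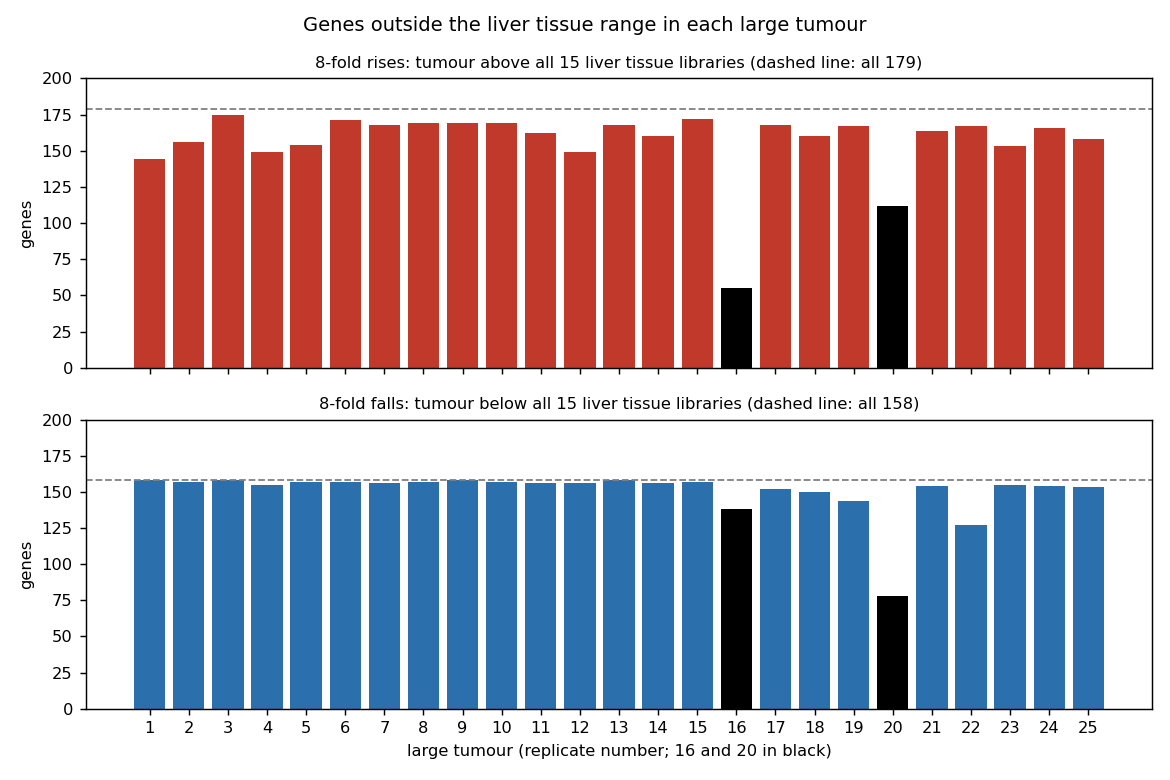
Bars give, for each of the 25 large tumours (horizontal axis, replicate number), how many of the 179 genes that rose at least 8-fold lay above all 15 liver tissue libraries (upper panel) and how many of the 158 that fell at least 8-fold lay below them all (lower panel). Dashed lines mark the full number of genes, and the black bars are large tumours 16 (55 and 138 genes) and 20 (112 and 78 genes).

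Most expressed genes differed. Of 14193 genes tested, 9982 changed (70.3%), of which 5170 rose (36.4%) and 4812 fell (33.9%). The counts of gene lists below are to be read against these shares. At least a 2-fold change was seen in 1410 genes that rose and 1090 that fell, and the median log2 fold change over all genes was 0.02. In 265 genes (1.87%) every large tumour lay above every liver tissue library, and in 329 (2.32%) every large tumour lay below. With library totals in place of TMM factors that split was 137 and 509. It was 638 and 783 without large tumours 16 and 20, and 478 and 518 without liver tissue 2 and 3. The test called 10101 genes without those tumours and 9952 without those tissue libraries. Tumours varied more than tissue: the SD of log2 CPM was larger among large tumours in 12186 genes (85.9%), with a median of 0.31 against 0.22 in liver tissue.

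**Figure D2:**
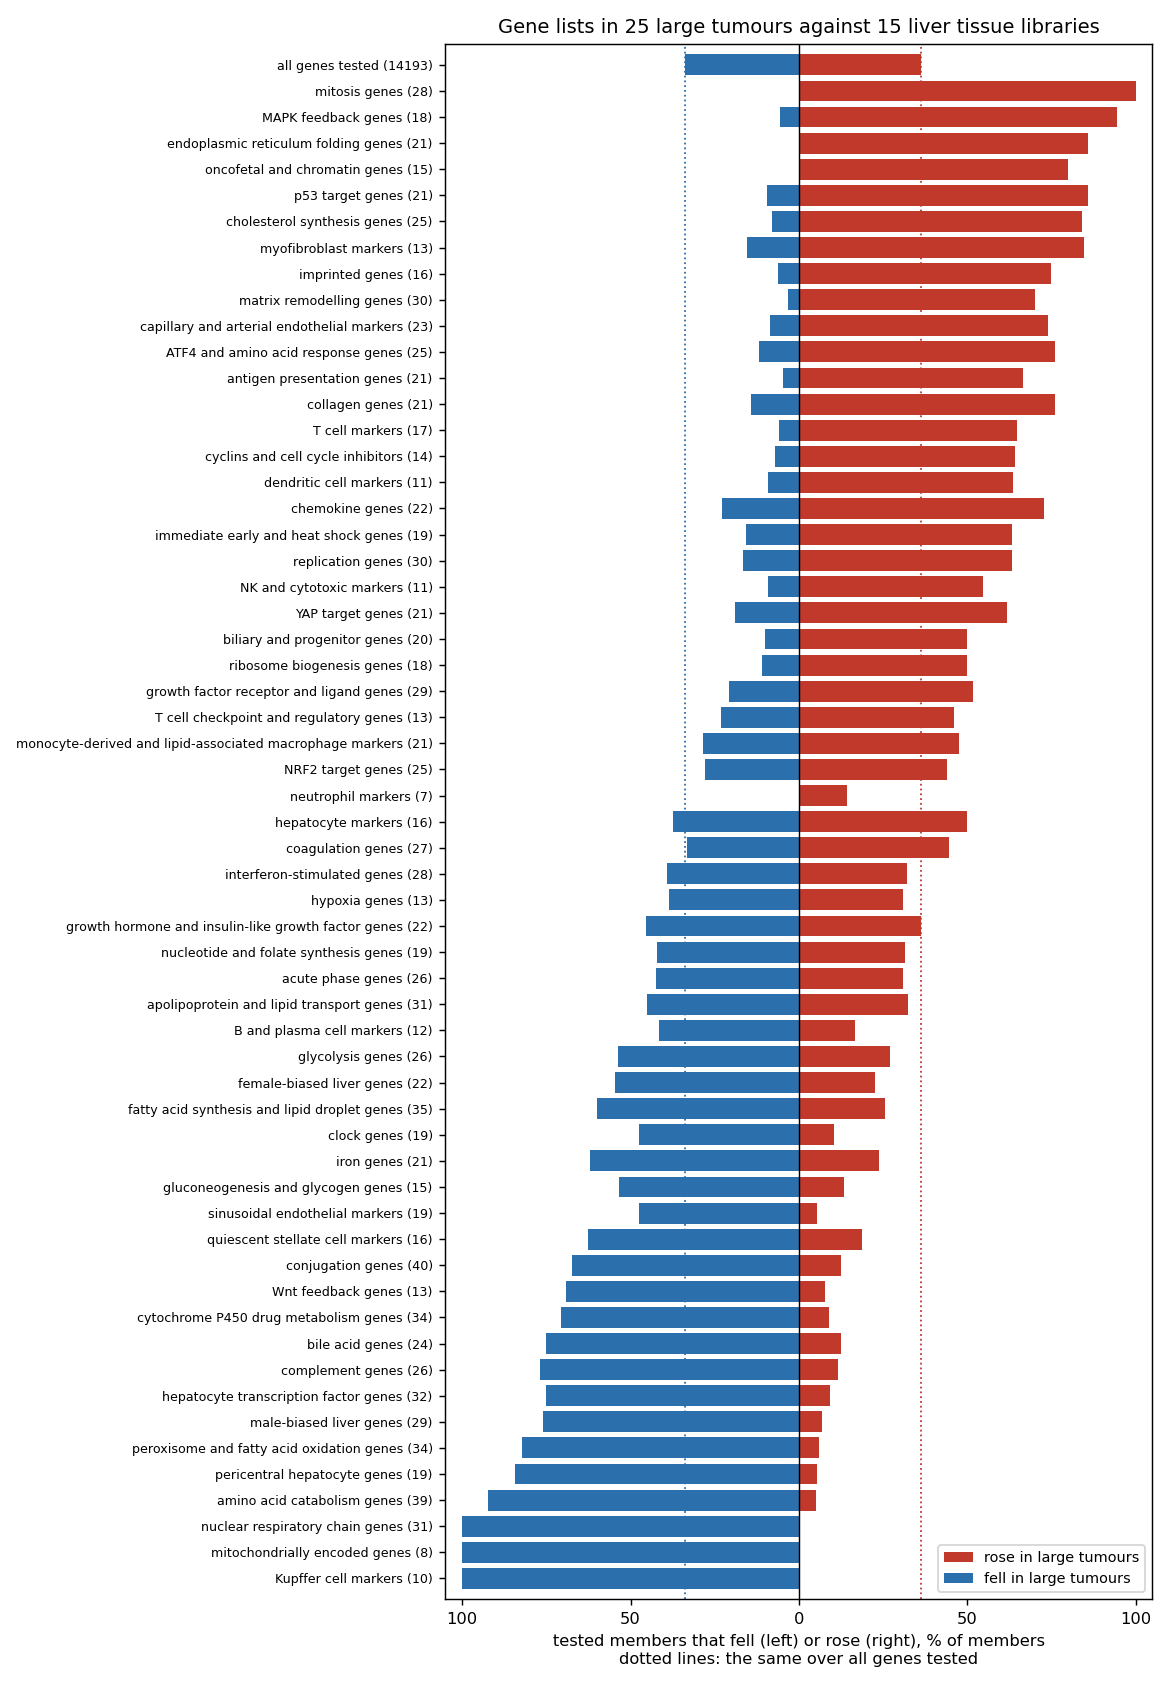
Each bar shows the share of a gene list's tested members (number in brackets) that rose (right, red) or fell (left, blue) in 25 large tumours against 15 liver tissue libraries, in percent. Dotted lines and the top bar give the shares over all 14193 genes tested, 36.4% and 33.9%, and lists run from mitosis and MAPK feedback genes, the highest, to Kupffer cell markers and mitochondrial genes, the lowest.

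The label liver tumour was checked against genes that define hepatocytes. All 16 hepatocyte markers were expressed in both groups, and 8 rose while 6 fell. Alb, which encodes serum albumin, ran from 34491 to 95258 CPM (median 55222) in liver tissue and from 82125 to 204750.0 CPM (median 153353) in large tumours (log2 fold change 1.30 ± 0.13, adjusted p = 6.37e-11). It was higher in 23 of 25 tumours than in any liver tissue library. Apoa1, the main protein of high-density lipoprotein, ran from 5434 to 12112 CPM (median 6598) in liver tissue and from 11154 to 28788 CPM (median 20324) in large tumours (log2 fold change 1.39 ± 0.12, adjusted p = 1.52e-12). By contrast Cyp2e1, the ethanol-metabolizing cytochrome P450 of pericentral cells, ran from 5114 to 13279.6 CPM (median 7649) in liver tissue and from 9.54 to 11730.4 CPM (median 176) in large tumours (log2 fold change -4.76 ± 0.69, adjusted p = 1.06e-07). Large tumour 20 alone reached the liver tissue range, and large tumour 19 held 4229 CPM. Hnf4a, a transcription factor gene that maintains hepatocyte identity, had medians of 724 and 694 CPM and was not called (log2 fold change -0.12 ± 0.06, adjusted p = 0.0712). In bulk RNA fewer cells of a type and less RNA per cell cannot be told apart, here and in every result below.

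The largest rises were in genes nearly silent in liver tissue. Cdh17, which encodes an intestinal cadherin and lies on chromosome 4 from 11758147 to 11817895 of the genome build GRCm38, ran from 0.0549 to 3.57 CPM (median 0.182) in liver tissue and from 0.127 to 88.0 CPM (median 25.3) in large tumours (log2 fold change 6.00 ± 0.59, adjusted p = 2.11e-11). Every large tumour but 16 and 25 lay above all liver tissue. Psrc1, a spindle protein gene and p53 target, ran from 0.275 to 4.30 CPM (median 0.617) in liver tissue and from 0.696 to 82.1 CPM (median 43.5) in large tumours (log2 fold change 5.32 ± 0.47, adjusted p = 9.80e-13), and every large tumour but 16 lay above all liver tissue. Among the largest rises over all genes were also the protocadherin gene Cdhr2 (medians 0.206 and 13.6 CPM, log2 fold change 5.06 ± 0.65), the protease gene Mep1b (medians 0.223 and 8.60 CPM, log2 fold change 5.06 ± 0.53) and the keratin gene Krt20 (medians 0.184 and 9.91 CPM, log2 fold change 5.03 ± 0.54), which are best known from intestinal epithelium. Igdcc4, an immunoglobulin superfamily receptor gene, separated the groups fully, from 0.395 to 7.72 CPM (median 1.34) in liver tissue and from 10.8 to 119 CPM (median 64.9) in large tumours (log2 fold change 4.71 ± 0.34, adjusted p = 5.95e-15).

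Most fetal and carcinoma-associated genes that could be tested rose. Of 15 oncofetal and chromatin genes tested 12 rose and none fell (median log2 fold change 1.24). Igf2bp1, Igf2bp3, Lin28b, Hmga2 and Sall4 of the same list were too low to test. Genes nearly silent in liver tissue can pass the filter on low counts through the tumours alone. Gpc3, a cell surface proteoglycan of fetal liver on chromosome X from 52272426 to 52613950, ran from 1.24 to 99.2 CPM (median 5.25) in liver tissue and from 22.4 to 2015 CPM (median 496) in large tumours (log2 fold change 4.83 ± 0.57, adjusted p = 1.47e-09). Afp, which encodes alpha-fetoprotein, ran from 1.84 to 42.4 CPM (median 7.69) in liver tissue and from 28.0 to 2676 CPM (median 191) in large tumours (log2 fold change 4.53 ± 0.54, adjusted p = 1.91e-09). Large tumour 18 was highest for Afp and large tumour 22 for Gpc3, and large tumour 16 was lowest for both. Golm1, a Golgi membrane protein gene, left no overlap between 20.9 CPM in the highest liver tissue library and 27.9 in the lowest tumour (log2 fold change 3.61 ± 0.21, adjusted p = 5.80e-17). Genes of DNA methylation upkeep rose by smaller amounts, Uhrf1 with a log2 fold change of 1.53 ± 0.20 and Dnmt1 of 0.37 ± 0.07. The 3 members not called were Igf2bp2 (log2 fold change -0.46 ± 0.24, adjusted p = 0.082), Dnmt3b and Hmgb2.

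Imprinted genes are expressed from a single parental copy, and many act in fetal growth. Of 16 tested genes listed here as imprinted 12 rose and 1 fell. With the replicate number as a block 7 rose and 1 fell, and within run 1 and within run 3 alike 4 rose and 1 fell. Dlk1, Mirg, Peg12, Zdbf2, Nnat, Ndn, Magel2, Nap1l5 and Usp29 of the same list were too low to test. Meg3, a noncoding RNA gene on chromosome 12, ran from 0.457 to 3.57 CPM (median 0.948) in liver tissue and from 0.0852 to 186 CPM (median 9.09) in large tumours (log2 fold change 3.38 ± 0.70, adjusted p = 5.28e-05). Its neighbour Rian ran from 0.152 to 1.26 CPM (median 0.374) in liver tissue and from 0 to 62.5 CPM (median 5.03) in large tumours (log2 fold change 3.94 ± 0.71, adjusted p = 6.73e-06). Both lay above all liver tissue in 19 tumours, 20 and 19 highest, and Meg3 lay below it in 5 and Rian in 3. H19, a fetal noncoding RNA gene on chromosome 7, ran from 1.60 to 74.7 CPM (median 22.8) in liver tissue and from 2.15 to 3106 CPM (median 80.2) in large tumours (log2 fold change 2.48 ± 0.79, adjusted p = 0.00558). Without large tumour 11 its log2 fold change was 1.74, and within single runs it passed in none. Its neighbour Igf2, a fetal growth factor gene, was not called (log2 fold change 0.20 ± 0.68, adjusted p = 0.801) but stood at 82.1 CPM in large tumour 25, the tumour highest for H19. Grb10, a brake on insulin receptor signalling, rose more evenly, above all liver tissue in 23 tumours (medians 7.09 and 19.1 CPM, log2 fold change 1.57 ± 0.18). Slc38a4, an amino acid transporter gene, was the member that fell (medians 1063 and 519 CPM, log2 fold change -1.22 ± 0.12).

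**Figure D3:**
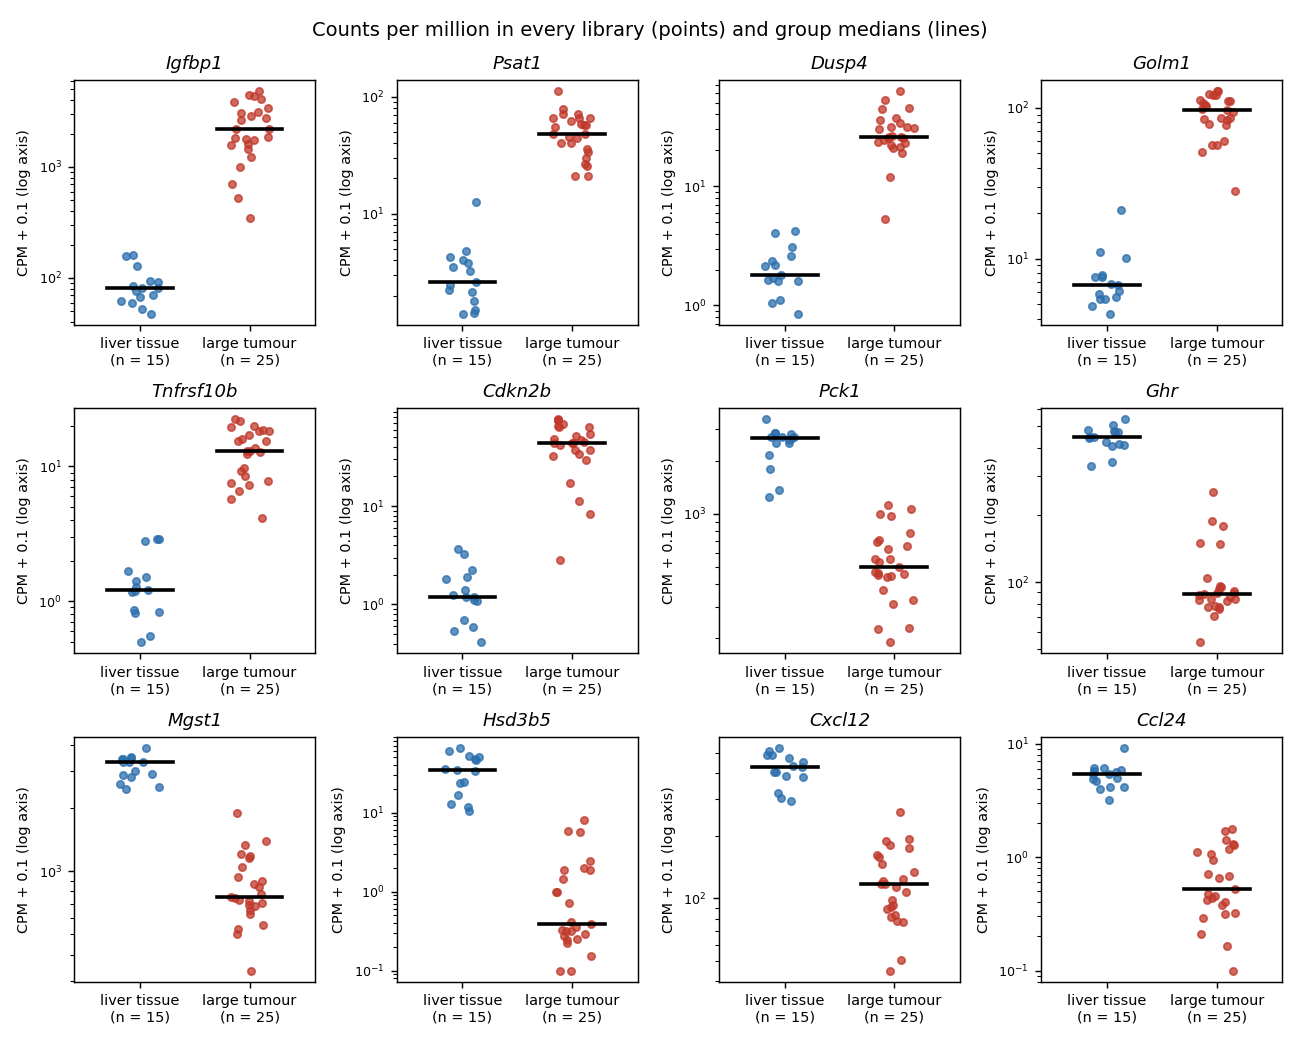
Points are single libraries and lines group medians for 12 genes, as CPM + 0.1 on log axes, in liver tissue (n = 15, blue) and large tumours (n = 25, red). The groups are separate for Igfbp1, Psat1, Dusp4, Golm1, Tnfrsf10b, Pck1, Ghr, Mgst1, Hsd3b5, Cxcl12 and Ccl24, and for Cdkn2b large tumour 16 lies inside the liver tissue range.

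Genes that mark activity of the growth-promoting MAPK cascade, most of them feedback inhibitors or targets of the kinase ERK, rose in 17 of 18 cases (median log2 fold change 1.44). In 5 of them every tumour lay above every liver tissue library, as in 1.87% of all genes. Dusp4, an ERK phosphatase gene, ran from 0.754 to 4.08 CPM (median 1.72) in liver tissue and from 5.19 to 62.9 CPM (median 26.0) in large tumours (log2 fold change 3.89 ± 0.25, adjusted p = 7.76e-16). Its relative Dusp5 (medians 2.34 and 28.0 CPM, log2 fold change 3.64 ± 0.25) and the feedback inhibitor gene Spred1 (medians 19.5 and 39.3 CPM, log2 fold change 0.99 ± 0.07) also lay above all liver tissue in every tumour. The transcription factor gene Etv4, a target of ERK, rose from near 0 (medians 0.189 and 7.22 CPM, log2 fold change 4.51 ± 0.47). Large tumour 16, lowest for Dusp4, Dusp5 and Etv4, held 0.0633 CPM of Etv4. Immediate early and heat shock genes rose in 12 of 19 cases and fell in 3. Among immediate early genes, which respond to the same cascade within minutes, Egr1 rose the most (medians 12.5 and 134 CPM, log2 fold change 3.15 ± 0.25), and Fos (medians 2.28 and 9.17 CPM, log2 fold change 2.06 ± 0.24) and Junb (medians 29.2 and 91.5 CPM, log2 fold change 1.63 ± 0.14) rose too. Hspa1a, a heat shock gene, rested on few tumours: it ran from 0.223 to 1.46 CPM (median 0.864) in liver tissue and from 0.223 to 111 CPM (median 1.21) in large tumours (log2 fold change 2.23 ± 0.75, adjusted p = 0.00829), its log2 fold change was 1.27 without large tumour 13, and without run 2 it was not called.

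Growth factor receptor and ligand genes rose in 15 and fell in 6 of 29 cases. Areg (medians 0.120 and 1.52 CPM, log2 fold change 4.19 ± 0.50), Btc (medians 2.68 and 18.5 CPM, log2 fold change 2.52 ± 0.25) and Tgfa (medians 26.5 and 76.5 CPM, log2 fold change 1.53 ± 0.14), genes for 3 ligands of the EGF receptor, rose. Ereg, a further ligand gene singled out after its values were seen, was not called (log2 fold change 0.26 ± 0.21, adjusted p = 0.275). Egfr, the receptor gene, fell and ran from 313 to 875 CPM (median 578) in liver tissue and from 122 to 474 CPM (median 305) in large tumours (log2 fold change -0.99 ± 0.13, adjusted p = 2.72e-08). Met, the receptor gene for hepatocyte growth factor, fell by less (log2 fold change -0.48 ± 0.08), and its ligand gene Hgf was not called (log2 fold change -0.38 ± 0.20, adjusted p = 0.0806). Tgfbr2, a TGF-beta receptor gene, lay above all liver tissue in every tumour (medians 61.8 and 153 CPM, log2 fold change 1.29 ± 0.10). Myc, a growth-promoting transcription factor gene, rose as well (medians 7.47 and 14.0 CPM, log2 fold change 0.90 ± 0.11).

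Targets of p53, the stress-activated tumour suppressor, rose in 18 of 21 cases (median log2 fold change 0.97). Tnfrsf10b, a death receptor gene, ran from 0.395 to 2.80 CPM (median 1.11) in liver tissue and from 4.05 to 22.3 CPM (median 13.0) in large tumours (log2 fold change 3.33 ± 0.25, adjusted p = 1.32e-14). The groups did not overlap for it, nor for the antiproliferative gene Btg2 (medians 24.7 and 156 CPM, log2 fold change 2.57 ± 0.18) and the stress sensor gene Sesn2 (medians 16.5 and 31.8 CPM, log2 fold change 0.94 ± 0.08). Cdkn1a, which encodes the cell cycle inhibitor p21, rose (medians 16.1 and 84.9 CPM, log2 fold change 2.42 ± 0.25), and so did Mdm2, which limits p53 (medians 34.4 and 63.6 CPM, log2 fold change 0.97 ± 0.11).

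Of 14 genes for cyclins, their kinases and inhibitors of the cell cycle 9 rose, 1 fell and 4 were not called (median log2 fold change 0.48). Cdkn2b on chromosome 4 from 89306299 to 89311039, which encodes the cyclin-dependent kinase inhibitor p15, ran from 0.314 to 3.57 CPM (median 1.10) in liver tissue and from 2.72 to 76.0 CPM (median 44.1) in large tumours (log2 fold change 5.02 ± 0.35, adjusted p = 4.27e-15). All tumours but number 16 lay above liver tissue. The adjacent tumour suppressor gene Cdkn2a rose as well (medians 1.31 and 12.6 CPM, log2 fold change 3.37 ± 0.40). Ccnd1, the cyclin D1 gene, rose (medians 43.4 and 133 CPM, log2 fold change 1.44 ± 0.17). Its partner kinase gene Cdk6 (medians 5.22 and 10.4 CPM, log2 fold change 0.96 ± 0.08) and the cyclin E gene Ccne1 (medians 2.06 and 10.7 CPM, log2 fold change 2.49 ± 0.26) lay above all liver tissue in every tumour.

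All 28 mitosis genes rose, from low levels (median log2 fold change 1.90), where 36.4% of all genes did. Mki67, the proliferation marker, ran from 2.55 to 18.1 CPM (median 4.61) in liver tissue and from 5.45 to 34.8 CPM (median 16.5) in large tumours (log2 fold change 1.83 ± 0.22, adjusted p = 2.86e-09). Hmmr, a spindle protein gene, ran from 0.123 to 3.08 CPM (median 0.740) in liver tissue and from 0.813 to 10.4 CPM (median 3.80) in large tumours (log2 fold change 2.68 ± 0.31, adjusted p = 1.08e-09). Both ranges overlapped, with liver tissue 2 and 3 highest among tissue and large tumours 13 and 23 lowest among tumours. DNA replication genes were less uniform, with 19 of 30 higher, 5 lower and a median of 0.33. Without run 2, 12 were higher and 5 lower. Mcm2, a helicase subunit gene, rose (medians 5.46 and 13.4 CPM, log2 fold change 1.22 ± 0.14). Mcm10, a replication initiation factor gene, went the other way, from 46.2 to 83.3 CPM (median 61.4) in liver tissue and from 3.51 to 36.6 CPM (median 8.37) in large tumours (log2 fold change -2.69 ± 0.20, adjusted p = 9.65e-15). Every large tumour lay below every liver tissue library for Mcm10, with 16 and 20 the highest of the tumours. The same held for E2f8, a repressor of the cell cycle that promotes polyploidy in liver (medians 8.22 and 1.32 CPM, log2 fold change -2.40 ± 0.20).

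Many mitotic genes are known to share a promoter element, the CCAAT box. Its share in this list therefore describes the genes chosen and not the tumours. Sequences are from RefSeq (build GRCm38.p6, first entry per gene), and the 250 bases before each gene's start were searched on both strands. CCAAT was found in 20 of the 23 mitosis genes with a promoter entry (87.0%), against 3785 of 10404 promoters of all genes tested (36.4%). Ccnb2, a mitotic cyclin gene (medians 1.26 and 7.16 CPM, log2 fold change 2.36 ± 0.26), and Cdc20, an activator of mitotic exit (medians 0.810 and 3.86 CPM, log2 fold change 2.36 ± 0.32), are 2 of them. Capitals mark the matches in stretches of chr9:70421556-70421656 (Ccnb2) and chr4:118437344-118437411 (Cdc20), printed on the gene's own minus strand.
Ccnb2: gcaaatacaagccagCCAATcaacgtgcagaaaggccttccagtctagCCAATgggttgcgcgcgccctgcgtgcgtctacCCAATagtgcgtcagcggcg
Cdc20: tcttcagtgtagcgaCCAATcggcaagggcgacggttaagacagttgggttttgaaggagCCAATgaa
The Ccnb2 stretch holds 3 matches that begin 87, 54 and 21 bases before the start, and the Cdc20 stretch 2 matches, 53 and 8 bases before it. A match describes the letters in the window and was not tested as a binding site.

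Genes of amino acid synthesis and of the ATF4 response, by which cells meet amino acid shortage and protein stress, rose in 19 of 25 cases (median log2 fold change 1.53). In 5 of them every tumour lay above every liver tissue library (1.87% of all genes). Psat1, an enzyme of serine synthesis, ran from 1.30 to 12.6 CPM (median 2.50) in liver tissue and from 20.9 to 112 CPM (median 47.7) in large tumours (log2 fold change 4.08 ± 0.28, adjusted p = 2.59e-15). The lowest tumour, number 20, was above the highest liver tissue library, number 2. Phgdh, which starts the serine pathway, rose from a low level (medians 0.187 and 2.31 CPM, log2 fold change 3.73 ± 0.32), and Psph, which ends it, rose in every tumour past liver tissue (medians 6.95 and 21.3 CPM, log2 fold change 1.53 ± 0.12). Pycr1 of proline synthesis (medians 0.361 and 4.98 CPM, log2 fold change 3.60 ± 0.25) and the asparagine synthetase gene Asns (medians 5.05 and 27.7 CPM, log2 fold change 2.82 ± 0.34) rose. Trib3, a pseudokinase gene induced by ATF4, rose more (medians 9.81 and 83.8 CPM, log2 fold change 3.40 ± 0.24) than Atf4 itself (medians 98.9 and 146 CPM, log2 fold change 0.60 ± 0.05). Shmt2, a mitochondrial folate enzyme gene, fell (medians 226 and 125 CPM, log2 fold change -0.98 ± 0.09).

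Folding factors of the endoplasmic reticulum rose in 18 of 21 cases (median log2 fold change 0.71) and none fell. Hspa5, the chaperone BiP, ran from 743 to 1133 CPM (median 922) in liver tissue and from 721 to 3645 CPM (median 2271) in large tumours (log2 fold change 1.29 ± 0.14, adjusted p = 2.31e-10). Large tumour 16 lay below all liver tissue for Hspa5 and large tumours 20 and 24 within its range, while the other 22 lay above. Sdf2l1, a BiP cofactor gene (medians 25.0 and 105 CPM, log2 fold change 2.09 ± 0.23), and Creld2, a secreted folding factor gene (medians 34.4 and 102 CPM, log2 fold change 1.45 ± 0.16), rose too, and for both large tumour 16 lay below all liver tissue.

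Motifs known for these 2 responses were counted in the same way, and promoter stretches that hold them are shown. These shares too describe the lists and not the tumours. The endoplasmic reticulum stress element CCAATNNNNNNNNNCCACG, which contains the CCAAT letters, was in 8 of 19 folding gene promoters (42.1%) and in 15 of all 10404 (0.144%). The amino acid response element TGATGNAA was in 6 of 23 promoters of the ATF4 list (26.1%) and in 202 of all (1.94%). The stretches lie at chr2:34772010-34772058 (Hspa5, plus strand), chr15:88819505-88819553 (Creld2, plus strand, match on the other strand), chr6:7693210-7693247 (Asns, minus strand) and chr11:120643829-120643866 (Pycr1, minus strand), with the fixed letters of each match in capitals.
Hspa5: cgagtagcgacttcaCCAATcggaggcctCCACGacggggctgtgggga
Creld2: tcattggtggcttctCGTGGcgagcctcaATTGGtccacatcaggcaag
Asns: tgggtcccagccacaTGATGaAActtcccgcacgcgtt
Pycr1: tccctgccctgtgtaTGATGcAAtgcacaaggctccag
The matches begin 65, 126, 23 and 103 bases before the 4 gene starts in that order. Whether a factor binds there was not measured.

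Of 25 targets of NRF2, which answers oxidative stress, 11 rose and 7 fell, shares near the 36.4% and 33.9% of all genes. Slc7a11, the cystine transporter gene, ran from 0.245 to 31.3 CPM (median 0.802) in liver tissue and from 3.74 to 344 CPM (median 26.2) in large tumours (log2 fold change 4.40 ± 0.80, adjusted p = 7.21e-06). Liver tissue 2 held 31.3 CPM while the other liver tissue libraries reached at most 2.05, and without it the log2 fold change was 5.69. Slc7a11 was not called within run 1, the run of liver tissue 2. The sulfiredoxin gene Srxn1 rose as well (medians 79.9 and 307 CPM, log2 fold change 2.00 ± 0.23), and so did the carbonyl reductase gene Cbr3 (medians 4.97 and 62.6 CPM, log2 fold change 3.34 ± 0.47). Large tumours 17, 18 and 21 had the highest levels of all 3 genes. Hmox1, haem oxygenase, fell (medians 52.5 and 33.2 CPM, log2 fold change -0.80 ± 0.15).

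Wnt signalling switches on genes in hepatocytes around the central vein, among them its own feedback inhibitors. The list of 13 Wnt feedback genes also held other targets, such as Lect2 and Glul, which is described with the pericentral genes below. Of these 13 genes 9 fell and 1 rose (median log2 fold change -1.05). This count depended on the runs: 2 fell without run 2 (median -0.63), 5 without the run term (median -0.54) and 0 within run 3 (median -0.035), while 11 fell within run 2. Axin2, a feedback inhibitor of the pathway, ran from 6.11 to 11.4 CPM (median 7.95) in liver tissue and from 0.130 to 41.5 CPM (median 1.19) in large tumours (log2 fold change -2.11 ± 0.51, adjusted p = 0.000353). It lay below all liver tissue in 23 tumours and above it in large tumours 19 (15.7 CPM) and 20 (41.5 CPM). The same pair was highest for Notum, which inactivates Wnt proteins, at 55.4 and 119 CPM against a tumour median of 2.70. For Sp5, a transcriptional target, they held 5.88 and 13.5 CPM against a median of 0.161. Nkd1, another feedback inhibitor, was below liver tissue in 22 tumours and at 41.4 and 123 CPM in 19 and 20. It was not called in the fit of all libraries (log2 fold change -0.69 ± 0.55, adjusted p = 0.268), and without large tumour 20 it passed (adjusted p = 0.0246). Without run 2 Axin2, Notum and Sp5 were not called, nor were Notum and Sp5 without the run term. High levels were not limited to large tumours 19 and 20. Large tumour 17 also lay above all liver tissue for Lgr5, Rnf43 and Lect2, and large tumour 18 for Lect2. Neither 17 nor 18 lay below liver tissue for Notum and Lgr5.

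Glutamine synthetase, encoded by Glul on chromosome 1 from 153899944 to 153909723, is confined to the hepatocytes nearest the central vein. Glul ran from 807 to 1452 CPM (median 1274) in liver tissue and from 15.5 to 4187 CPM (median 43.0) in large tumours (log2 fold change -3.64 ± 0.62, adjusted p = 2.69e-06). Large tumours 19 and 20 held 1492 and 4187 CPM, above all liver tissue, and the other 23 lay below it. Of 19 pericentral genes 16 fell and 1 rose, with a median log2 fold change of -3.08. The count was 18 without large tumours 16 and 20, 12 without run 2, 13 without the run term and 4 within run 3, where the median was -1.41. Oat, the ornithine aminotransferase gene, fell (medians 844 and 19.8 CPM, log2 fold change -4.39 ± 0.69), and so did the glutamate transporter gene Slc1a2 (medians 243 and 2.21 CPM, log2 fold change -4.74 ± 0.87). For both, large tumour 20 lay above liver tissue, 19 within its range and the other 23 below. Without large tumour 4 the log2 fold change of Slc1a2 was -5.34. Without the run term the log2 fold changes were -2.44 for Oat and -2.37 for Slc1a2. Large tumours 17, 19 and 20 lay above all liver tissue for the pericentral gene Cyp1a2, and 17, 18, 19 and 20 for Gulo.

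**Figure D4:**
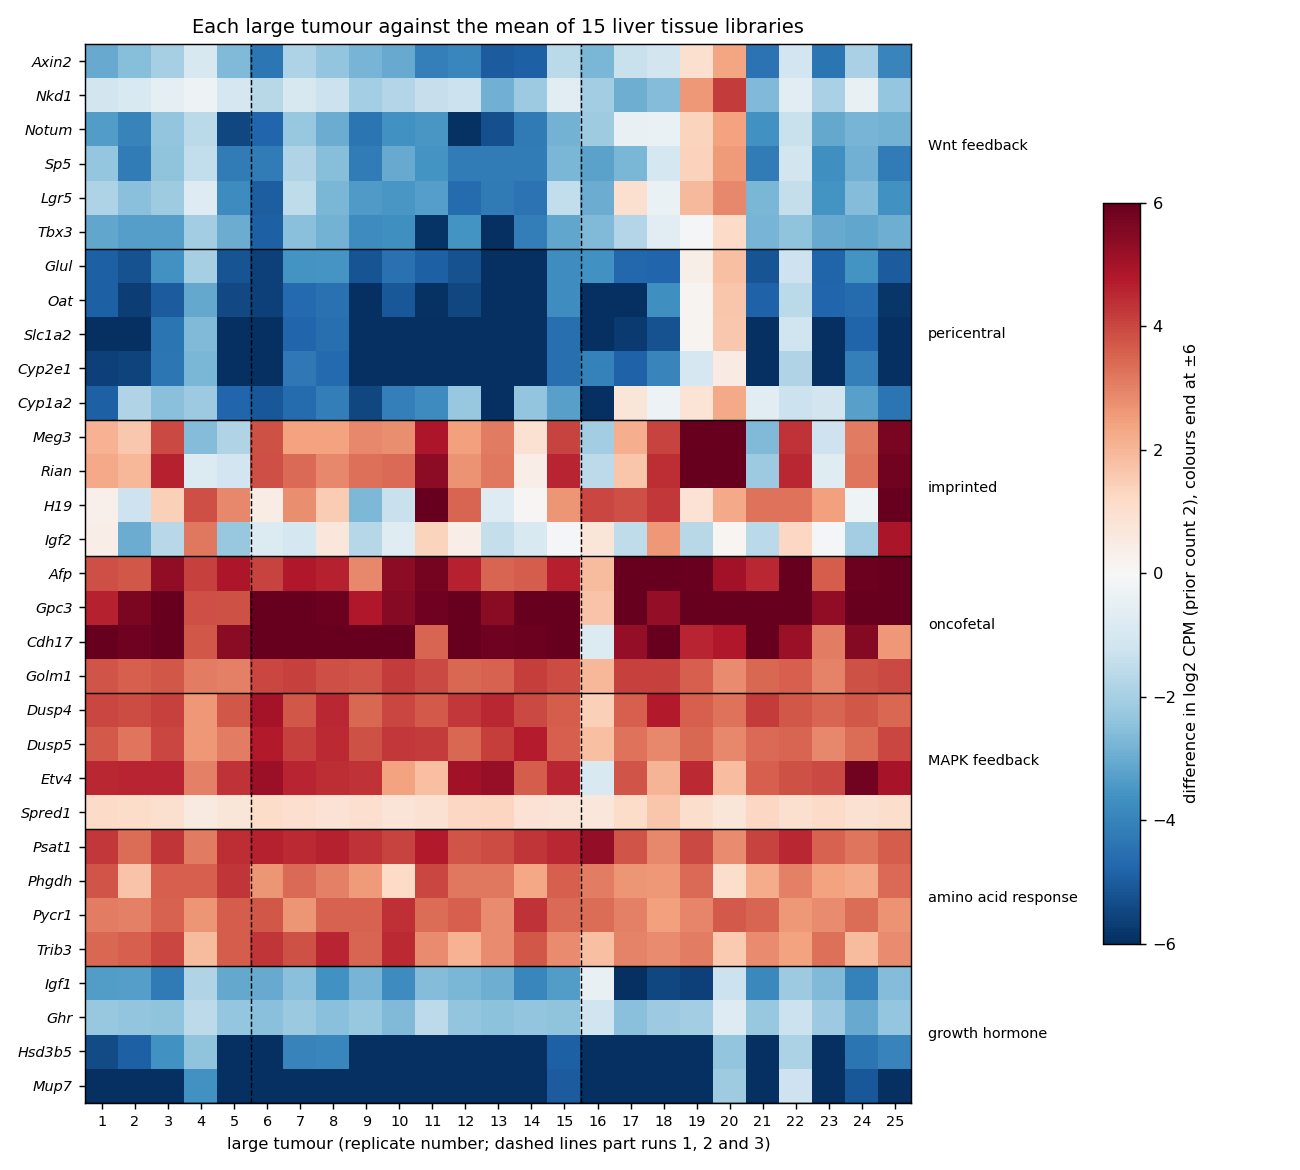
Colours give the difference in log2 CPM between each large tumour (columns, replicate number) and the mean of 15 liver tissue libraries for 31 genes in 7 groups, and the scale ends at 6 in both directions. Large tumours 19 and 20 are red for most Wnt feedback genes where most others are blue, large tumour 16 is pale blue for Cdh17 and Etv4, and the amino acid response genes are red in every column.

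Cytochrome P450 genes of drug metabolism fell in 24 of 34 cases and rose in 3 (median log2 fold change -1.36). Some of them, such as Cyp2c54, are also counted among the pericentral genes above. Cyp2c54 ran from 78.4 to 257 CPM (median 133) in liver tissue and from 0 to 75.5 CPM (median 0.609) in large tumours (log2 fold change -5.74 ± 0.64, adjusted p = 4.13e-10). The groups did not overlap, and without large tumour 4 its log2 fold change was -6.39. Cyp2f2, a periportal P450, separated the groups as well (medians 880.3 and 69.4 CPM, log2 fold change -3.34 ± 0.37). Por, which passes electrons to all of these enzymes, fell (medians 457 and 164 CPM, log2 fold change -1.97 ± 0.19). Cyp2a4, a steroid hydroxylase gene, rose (medians 423 and 1908 CPM, log2 fold change 2.13 ± 0.31). Members of the Cyp2a and Cyp2c families are near-identical and were counted from uniquely aligned reads, so the split between copies is uncertain. Conjugating enzymes fell in 27 of 40 cases and rose in 5. Mgst1, a microsomal glutathione transferase, ran from 2459 to 3872 CPM (median 3303) in liver tissue and from 336 to 1889.6 CPM (median 751) in large tumours (log2 fold change -2.02 ± 0.12, adjusted p = 1.13e-16), with every tumour below liver tissue. Nnmt, nicotinamide methyltransferase, fell further (medians 152 and 3.44 CPM, log2 fold change -4.38 ± 0.44). The glutathione transferase gene Gstp1, which has a near-identical neighbour, rose (medians 126 and 248 CPM, log2 fold change 0.96 ± 0.15).

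Genes expressed more in male than in female liver, a difference set by the pulses of growth hormone, fell in 22 of 29 cases (median log2 fold change -3.74). In 14 of them every tumour lay below every liver tissue library, as in 2.32% of all genes. Many members of this list are Mup genes (Mup1, Mup3, Mup7, Mup10, Mup11, Mup14, Mup15, Mup16, Mup17, Mup20 and Mup21). Both counts therefore partly repeat a single gene family and are not of independent genes. Hsd3b5, a steroid dehydrogenase, ran from 10.3 to 66.0 CPM (median 34.2) in liver tissue and from 0 to 7.85 CPM (median 0.291) in large tumours (log2 fold change -4.74 ± 0.45, adjusted p = 7.85e-12). Elovl3, a fatty acid elongase gene, fell (medians 38.5 and 0.284 CPM, log2 fold change -4.40 ± 0.51). Mup3, a pheromone carrier gene of a family of near-identical copies, fell (medians 2046 and 199 CPM, log2 fold change -3.39 ± 0.33), while its relative Mup20 was not called (log2 fold change 0.18 ± 0.30, adjusted p = 0.602). Genes expressed more in females did not move the other way as a group, with 12 lower and 5 higher of 22. Among them A1bg fell the most (medians 49.7 and 0.0852 CPM, log2 fold change -7.11 ± 0.60), and large tumours 20 and 22 alone reached its liver tissue range. Abcd2, a peroxisomal fatty acid transporter gene, rose with no overlap (medians 41.0 and 172 CPM, log2 fold change 2.00 ± 0.18).

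Growth hormone and insulin-like growth factor genes rose in 8 (36.4% of all genes did) and fell in 10 (33.9% of all genes) of 22 cases. The growth hormone receptor gene Ghr ran from 331 to 537 CPM (median 445) in liver tissue and from 53.8 to 255 CPM (median 88.0) in large tumours (log2 fold change -2.17 ± 0.14, adjusted p = 2.94e-16), with no overlap. Igf1, the hormone made in response, fell (medians 723 and 81.3 CPM, log2 fold change -2.90 ± 0.33), and so did its plasma carrier gene Igfals (medians 162 and 21.4 CPM, log2 fold change -2.68 ± 0.27) and the feedback inhibitor gene Socs2 (medians 56.7 and 13.4 CPM, log2 fold change -2.04 ± 0.20). Large tumours 16 and 20 had the highest Igf1 of the tumours (502 and 285 CPM). Igfbp1, an IGF-binding protein gene induced by fasting and stress on chromosome 11 from 7197782 to 7202546, ran from 47.6 to 159.8 CPM (median 80.4) in liver tissue and from 346 to 4843 CPM (median 2176) in large tumours (log2 fold change 4.67 ± 0.33, adjusted p = 3.77e-15). Every tumour lay above every liver tissue library for Igfbp1.

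Transcription factor genes of the hepatocyte fell in 24 of 32 cases and rose in 3. Nr1i3, the drug sensor CAR, ran from 156 to 652 CPM (median 246) in liver tissue and from 5.76 to 444 CPM (median 33.9) in large tumours (log2 fold change -3.65 ± 0.38, adjusted p = 7.87e-11). Large tumours 17, 18, 19 and 20 lay within the liver tissue range and all others below. Nr1h4, the bile acid receptor FXR, fell by less (medians 143 and 54.4 CPM, log2 fold change -1.48 ± 0.10), and Foxa3, a factor of liver development, rose (medians 41.3 and 82.4 CPM, log2 fold change 1.00 ± 0.09). Among clock genes 9 fell (33.9% of all genes did) and 2 rose (36.4%) of 19, with a median log2 fold change of -0.47. The clock output gene Usp2 fell the most (medians 22.6 and 2.54 CPM, log2 fold change -3.58 ± 0.33). Without the run term 6 clock genes fell and 1 rose (median -0.13), and without run 2 the counts were the same (median -0.16). Within run 3, 4 fell and 0 rose. The hour of death is not in the labels, and its part in the clock genes was not tested.

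Amino acid breakdown fell almost throughout: 36 of 39 genes were lower and 2 higher (median log2 fold change -1.37). Prodh, proline dehydrogenase, ran from 101 to 384 CPM (median 213) in liver tissue and from 0.701 to 299 CPM (median 6.78) in large tumours (log2 fold change -4.69 ± 0.48, adjusted p = 4.69e-11). Large tumour 20 alone reached the liver tissue range. Hpd of tyrosine breakdown fell (medians 1832 and 159 CPM, log2 fold change -3.45 ± 0.37), as did the glycine methyltransferase gene Gnmt (medians 800.1 and 141 CPM, log2 fold change -2.91 ± 0.24). In the urea cycle Cps1, which takes up ammonia, fell (medians 3208 and 1325 CPM, log2 fold change -1.37 ± 0.13). Otc, the next enzyme, fell with no overlap (medians 375 and 136 CPM, log2 fold change -1.47 ± 0.13), and Ass1 (medians 109 and 27.3 CPM, log2 fold change -2.06 ± 0.16) and Asl (medians 403 and 136 CPM, log2 fold change -1.92 ± 0.17), which follow, fell too. Sdsl, a serine dehydratase-like gene, rose (medians 10.6 and 14.9 CPM, log2 fold change 0.42 ± 0.11).

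Pck1, the committed step of gluconeogenesis, ran from 1240.3 to 3416 CPM (median 2673) in liver tissue and from 189 to 1120.4 CPM (median 502) in large tumours (log2 fold change -2.23 ± 0.18, adjusted p = 1.82e-13). G6pc, which releases glucose, ran from 180.0 to 421 CPM (median 321) in liver tissue and from 3.42 to 106 CPM (median 45.8) in large tumours (log2 fold change -2.69 ± 0.28, adjusted p = 7.91e-11). Neither range overlapped with liver tissue. Of 15 genes of gluconeogenesis and glycogen 8 fell and 2 rose. Of 26 glycolysis genes 7 rose and 14 fell (36.4% and 33.9% of all genes did), and 9 fell without run 1 or without run 2. The liver's pyruvate kinase gene Pklr fell (medians 445 and 166 CPM, log2 fold change -1.32 ± 0.17). Many glycolysis genes have processed pseudogenes, and counts of uniquely aligned reads can understate them. Of 13 hypoxia genes 4 rose and 5 fell, near the shares of all genes (36.4% and 33.9%).

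Fat burning genes fell: 28 of 34 genes of peroxisomes and fatty acid oxidation were lower and 2 higher (median log2 fold change -1.20). Cyp4a14, a fatty acid hydroxylase and classic PPAR-alpha target, ran from 429.9 to 1201 CPM (median 716) in liver tissue and from 0.452 to 239.9 CPM (median 3.08) in large tumours (log2 fold change -5.84 ± 0.72, adjusted p = 4.24e-09). Cyp4a31, of the same family as Cyp4a14, rose (medians 6.32 and 35.8 CPM, log2 fold change 2.45 ± 0.23), and the rate-limiting carnitine transferase gene Cpt1a was not called (log2 fold change -0.15 ± 0.10, adjusted p = 0.159).

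Fat storage genes split. Of 35 genes of fatty acid synthesis and lipid droplets 21 fell and 9 rose. Scd1, stearoyl desaturase, ran from 13780.2 to 25523 CPM (median 19536) in liver tissue and from 2417 to 23622 CPM (median 7637) in large tumours (log2 fold change -1.19 ± 0.24, adjusted p = 3.24e-05). Large tumours 4, 11 and 16 stayed within the liver tissue range. Scd2, the form of fetal liver and other tissues, rose (medians 61.8 and 581 CPM, log2 fold change 2.71 ± 0.30). Cidea, a lipid droplet gene, fell (medians 15.5 and 2.12 CPM, log2 fold change -2.55 ± 0.31), and the droplet coat gene Plin3 rose in every tumour past liver tissue (medians 50.5 and 96.4 CPM, log2 fold change 0.94 ± 0.07). Srebf1, the regulator of fatty acid synthesis, fell (medians 900.1 and 305 CPM, log2 fold change -1.47 ± 0.15), and the fatty acid synthase gene Fasn was not called (log2 fold change -0.31 ± 0.19, adjusted p = 0.135).

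Cholesterol synthesis genes rose in 21 of 25 cases (median log2 fold change 0.89). Sqle, squalene epoxidase, ran from 13.9 to 93.3 CPM (median 30.6) in liver tissue and from 102 to 327 CPM (median 214) in large tumours (log2 fold change 2.53 ± 0.22, adjusted p = 7.45e-13) and separated the groups. Srebf2, the regulator of the pathway, rose (medians 62.6 and 107 CPM, log2 fold change 0.75 ± 0.07). Bile acid genes fell in 18 of 24 cases (median log2 fold change -1.60). Cyp7a1, the rate-limiting enzyme, ran from 119 to 739 CPM (median 227) in liver tissue and from 0 to 354 CPM (median 3.72) in large tumours (log2 fold change -5.35 ± 0.74, adjusted p = 5.14e-08). Its log2 fold change was -6.26 without large tumour 4, and large tumour 20 alone reached the liver tissue range. Cyp7b1, of the alternative pathway, fell with no overlap (medians 199 and 9.01 CPM, log2 fold change -4.11 ± 0.37), and so did the conjugating enzyme gene Baat (medians 304 and 84.4 CPM, log2 fold change -1.83 ± 0.11). The uptake carrier gene Slc10a1 fell (medians 706 and 57.1 CPM, log2 fold change -3.17 ± 0.31), and the basolateral export pump gene Abcc4 rose (medians 14.2 and 55.0 CPM, log2 fold change 1.76 ± 0.33).

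All 31 nuclear genes of the respiratory chain and ATP synthase fell, where 33.9% of all genes did (median log2 fold change -0.67). Sdha, of succinate dehydrogenase, ran from 457 to 599 CPM (median 533) in liver tissue and from 191 to 409 CPM (median 294) in large tumours (log2 fold change -0.94 ± 0.07, adjusted p = 7.27e-15), with no overlap. All 8 tested genes of the mitochondrial genome fell too, by a median of -0.97. Among them mt-Cytb ran from 6808 to 10227 CPM (median 8728) in liver tissue and from 2049 to 5486 CPM (median 3355) in large tumours (log2 fold change -1.40 ± 0.08, adjusted p = 1.01e-16). Ribosome biogenesis genes moved less, with 9 higher and 2 lower of 18.

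Coagulation genes rose in 12 and fell in 9 of 27 cases, shares near those of all genes (36.4% and 33.9%), and without run 2 the counts were 7 and 6. Among them F11, a clotting factor gene, rose (medians 62.5 and 162 CPM, log2 fold change 1.34 ± 0.13), and Serpinc1, which encodes antithrombin, fell (medians 2214 and 1483 CPM, log2 fold change -0.59 ± 0.10). Complement genes fell in 20 of 26 cases. Cfd, complement factor D, ran from 10.1 to 178 CPM (median 31.0) in liver tissue and from 0 to 6.29 CPM (median 0.0711) in large tumours (log2 fold change -6.43 ± 0.56, adjusted p = 9.00e-13), with no overlap. C9, a subunit of the membrane pore, fell in every tumour past liver tissue (medians 444 and 189 CPM, log2 fold change -1.23 ± 0.18), and so did the lectin gene Mbl1 (medians 192 and 45.0 CPM, log2 fold change -2.03 ± 0.14).

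Of 26 acute phase genes 8 rose and 11 fell, also near the shares of all genes (36.4% and 33.9%). Lcn2, an iron-scavenging lipocalin made by hepatocytes and neutrophils, ran from 57.6 to 267 CPM (median 124) in liver tissue and from 112 to 4208 CPM (median 1236) in large tumours (log2 fold change 3.08 ± 0.30, adjusted p = 1.50e-11). Crp, the C-reactive protein gene, fell in every tumour past liver tissue (medians 484 and 229 CPM, log2 fold change -1.12 ± 0.11). Apolipoprotein and lipid transport genes rose in 10 (36.4% of all genes did) and fell in 14 (33.9% of all genes) of 31 cases. Among them Apom rose (medians 142 and 713 CPM, log2 fold change 2.20 ± 0.24) and Apoa5 fell (medians 1316 and 484 CPM, log2 fold change -1.64 ± 0.20). Large tumour 16 held 20.8 CPM of Apom, below all liver tissue, while the other 24 tumours were above. Iron genes fell in 13 of 21 cases and rose in 5. Tfr2, an iron sensor gene, fell (medians 617 and 275 CPM, log2 fold change -1.14 ± 0.07) and the transferrin gene Trf rose (medians 4867 and 9490.5 CPM, log2 fold change 0.91 ± 0.11). Hamp, which encodes the iron hormone hepcidin, ran from 23.4 to 273 CPM (median 132) in liver tissue and from 1.40 to 109.7 CPM (median 32.6) in large tumours (log2 fold change -1.60 ± 0.45, adjusted p = 0.00177), and it passed neither within run 1 nor within run 2.

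Collagen genes rose in 16 of 21 cases (median log2 fold change 1.11). Col4a3, of basement membranes, ran from 0.329 to 14.0 CPM (median 1.20) in liver tissue and from 10.6 to 113 CPM (median 39.0) in large tumours (log2 fold change 3.70 ± 0.39, adjusted p = 8.18e-11), and its partner Col4a4 lay above all liver tissue in every tumour (medians 0.609 and 7.47 CPM, log2 fold change 3.35 ± 0.33). Col1a1, the main fibrillar collagen, ran from 4.91 to 54.8 CPM (median 17.6) in liver tissue and from 17.2 to 401 CPM (median 72.9) in large tumours (log2 fold change 1.98 ± 0.33, adjusted p = 1.37e-06), and only 15 tumours lay above all liver tissue. Matrix remodelling genes rose in 21 of 30 cases. Plat, tissue plasminogen activator, rose (medians 1.17 and 11.9 CPM, log2 fold change 3.23 ± 0.42), as did the matricellular gene Thbs1 (medians 6.58 and 28.6 CPM, log2 fold change 2.64 ± 0.30). Fn1, fibronectin, rose in every tumour past liver tissue (medians 2179.9 and 3904 CPM, log2 fold change 0.82 ± 0.07), and the proteoglycan gene Dcn fell (medians 206 and 98.5 CPM, log2 fold change -1.01 ± 0.18).

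Stellate cells store vitamin A and can turn into matrix-producing myofibroblasts. Markers of the resting state fell in 10 of 16 cases and rose in 3. Their summed level overlapped, from 288 to 625 CPM in liver tissue and from 327 to 744 in large tumours. Lrat, which esterifies vitamin A, fell (medians 26.4 and 11.3 CPM, log2 fold change -1.39 ± 0.23). Hhip, an inhibitor of hedgehog signalling, fell with no overlap (medians 1.67 and 0.0507 CPM, log2 fold change -3.70 ± 0.37). Other resting-state markers went the opposite way. Reln lay above all liver tissue in every tumour but 5, 9, 12 and 16. Every tumour lay above all liver tissue for 1 member of the list and below it for 1, Hhip (1.87% and 2.32% of all genes). Myofibroblast markers rose in 11 of 13 cases and fell in 2, with sums of 56.7 to 350.3 CPM in liver tissue and 99.5 to 1389 in large tumours. Tpm2 of this list lay below all liver tissue in every tumour but number 3. Col1a1 and some other members are also counted among the collagen or matrix genes above. Acta2, smooth muscle actin, ran from 0.607 to 15.5 CPM (median 3.37) in liver tissue and from 3.22 to 40.1 CPM (median 14.0) in large tumours (log2 fold change 2.13 ± 0.28, adjusted p = 2.09e-08).

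Of 23 markers of capillary and arterial endothelium 17 rose and 2 fell (median log2 fold change 1.28). Of 19 sinusoidal markers 9 fell, 1 rose and 9 were not called (median -0.40). The sinusoidal count varied with the run: 4 fell and 3 rose within run 2 (median -0.035), and 6 fell and 2 rose without run 3 or with the replicate block (median -0.14 with the block). The summed sinusoidal level was 387 to 1055 CPM in liver tissue and 333 to 868 in large tumours. The capillary sum was 321 to 666 CPM and 539 to 2650.0, so both overlapped. Wnt2, which endothelial cells near the central vein send to hepatocytes, fell (medians 3.18 and 0.767 CPM, log2 fold change -1.88 ± 0.27), and so did the Wnt enhancer gene Rspo3 (medians 5.94 and 1.46 CPM, log2 fold change -1.76 ± 0.25). Stab1, a sinusoidal scavenger receptor gene, was not called (log2 fold change 0.21 ± 0.10, adjusted p = 0.0688), and its relative Stab2 fell (medians 84.6 and 55.2 CPM, log2 fold change -0.58 ± 0.14). Cd34, a capillary marker, ran from 1.71 to 6.92 CPM (median 2.70) in liver tissue and from 6.34 to 69.1 CPM (median 14.1) in large tumours (log2 fold change 2.55 ± 0.31, adjusted p = 3.55e-09). Apln, a peptide of sprouting tip cells, spanned 0.0638 CPM in large tumour 22 to 130.2 in large tumour 13 (log2 fold change 4.60 ± 0.84, adjusted p = 8.06e-06). Large tumours 6, 8 and 13 were the highest for Apln and for Esm1, another tip cell gene (medians 5.83 and 31.4 CPM, log2 fold change 2.73 ± 0.38).

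Markers of Kupffer cells, the resident macrophages of the liver, fell in all 10 cases (median log2 fold change -2.48). Their summed level left no overlap, from 752 to 1553 CPM in liver tissue and from 102 to 682 in large tumours. Clec4f, a lectin specific to these cells, ran from 147 to 362 CPM (median 285) in liver tissue and from 2.92 to 138 CPM (median 37.8) in large tumours (log2 fold change -2.51 ± 0.32, adjusted p = 6.73e-09). Marco, a scavenger receptor gene, ran from 3.35 to 76.7 CPM (median 35.0) in liver tissue and from 0.0628 to 8.02 CPM (median 0.569) in large tumours (log2 fold change -4.92 ± 0.48, adjusted p = 1.70e-11). Liver tissue 2 and 3 were the lowest liver tissue libraries for both. Macrophage markers outside that list split (10 rose and 6 fell of 21). Csf1r, the general macrophage receptor gene, fell (medians 167 and 71.0 CPM, log2 fold change -1.03 ± 0.15), while the lipase gene Lpl rose (medians 77.5 and 231 CPM, log2 fold change 1.63 ± 0.20), a gene that other cells of liver and tumour can express. Trem2, which is more specific to lipid-associated macrophages, was not called (log2 fold change 0.33 ± 0.22, adjusted p = 0.174).

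Lymphocyte transcripts were scarce in both groups. T cell markers rose in 11 of 17 cases (median log2 fold change 0.92), but the summed levels overlapped, from 24.8 to 58.7 CPM in liver tissue and from 21.2 to 95.9 in large tumours. The count fell to 2 without run 2, 5 without the run term, 7 without libraries over 10 CPM of S100a8, 3 within run 1, 5 within run 2 and 0 within run 3. Cd8a, of cytotoxic T cells, ran from 0.304 to 5.24 CPM (median 0.934) in liver tissue and from 0.465 to 13.0 CPM (median 1.56) in large tumours (log2 fold change 1.14 ± 0.36, adjusted p = 0.00552). In 5 tumours it lay above all liver tissue. Pdcd1, which encodes the checkpoint receptor PD-1, ran from 0 to 2.52 CPM (median 0.228) in liver tissue and from 0.0480 to 7.02 CPM (median 0.569) in large tumours (log2 fold change 1.88 ± 0.56, adjusted p = 0.00315), and large tumour 24 was the highest for both genes. Without run 2 neither gene was called. Cd274, the gene of its ligand, was not called (log2 fold change -0.02 ± 0.14, adjusted p = 0.902). Of 13 tested checkpoint and regulatory genes of T cells 6 rose and 3 fell (median log2 fold change 0.31), and without run 2 only 1 rose. Tnfrsf18, a receptor gene that other cells can express too, rose (medians 0.311 and 7.16 CPM, log2 fold change 4.30 ± 0.38). Foxp3, the defining factor of regulatory T cells, and Ctla4, Ccr8 and Tnfrsf4 were too low to test. The neutrophil markers Ly6g, Retnlg, Mmp8, Camp, Cxcr2, Elane and Mpo were too low to test. Of 7 neutrophil markers tested edgeR's test called Lcn2 alone, while DESeq2 called 2 others lower, and 3 were lower without the run term and within run 1. S100a8, a gene more specific to these cells, was not called (log2 fold change -0.65 ± 0.44, adjusted p = 0.189).

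Chemokine genes rose in 16 of 22 cases and fell in 5. Cxcl1, which draws neutrophils, ran from 3.77 to 11.6 CPM (median 7.71) in liver tissue and from 10.2 to 65.5 CPM (median 41.7) in large tumours (log2 fold change 2.40 ± 0.20, adjusted p = 4.81e-13). Cxcl12, which holds stem cells and lymphocytes in place, ran from 293 to 528 CPM (median 426) in liver tissue and from 44.9 to 261 CPM (median 117) in large tumours (log2 fold change -1.86 ± 0.14, adjusted p = 1.84e-14). Ccl24, an eosinophil chemokine, ran from 3.08 to 9.09 CPM (median 5.31) in liver tissue and from 0 to 1.68 CPM (median 0.425) in large tumours (log2 fold change -2.98 ± 0.28, adjusted p = 3.57e-12). Every tumour lay below every liver tissue library for Cxcl12 and Ccl24. Of 28 interferon-stimulated genes 9 rose and 11 fell, near the shares of all genes (36.4% and 33.9%), and without run 2, 7 rose and 5 fell. Irf7, a regulator of the response, was lower in every tumour (medians 114 and 61.9 CPM, log2 fold change -0.99 ± 0.11), and Ifi44 rose (medians 12.0 and 24.4 CPM, log2 fold change 1.02 ± 0.12). Antigen presentation genes rose in 14 of 21 cases, among them the class II gene H2-Eb1 (medians 58.8 and 132 CPM, log2 fold change 0.97 ± 0.24). Cd1d1, which presents lipids to NKT cells, fell (medians 191 and 94.4 CPM, log2 fold change -1.12 ± 0.10).

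Biliary and progenitor genes rose in 10 of 20 cases and fell in 2. Ly6d, a progenitor marker, rose (medians 25.5 and 357 CPM, log2 fold change 3.45 ± 0.37), along with the duct and progenitor regulator gene Sox9 (medians 5.42 and 21.7 CPM, log2 fold change 1.95 ± 0.28). Large tumour 16 held 5.70 CPM of Ly6d, below every liver tissue library. The duct cell genes Epcam (log2 fold change -0.26 ± 0.36, adjusted p = 0.524) and Krt7 (log2 fold change -0.49 ± 0.41, adjusted p = 0.295) were not called. Targets of the growth regulator YAP rose in 13 of 21 cases and fell in 4, with 9 rises without run 2 and 7 within run 1.

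Each run held both groups, so the comparison was repeated within runs. It called 7240 genes in run 1 (5 tumours and 6 tissue libraries), 8690 in run 2 (10 and 6) and 4159 in run 3 (10 and 3). Of the 9982 genes, 9748 of 9861, 9883 of 9899 and 9761 of 9975 with a value in runs 1, 2 and 3 kept their direction there. The libraries of each run are part of the fit that called these genes, so agreement in direction was favoured beforehand and is no independent check. In runs 1, 2 and 3 Igfbp1 had log2 fold changes of 3.74, 5.29 and 4.74, Psat1 of 3.17, 4.97 and 4.04 and Golm1 of 3.15, 4.05 and 3.48. Among genes that fell, Pck1 gave -2.12, -2.46 and -1.98, Cxcl12 -1.43, -2.27 and -1.71 and Glul -3.30, -4.77 and -1.07. Glul was not called within run 3, the run of large tumours 19 and 20 (adjusted p = 0.585). The same held for Cyp2e1, where the values were -3.93, -6.19 and -2.48 (adjusted p in run 3 = 0.13). Other genes named above that were not called within run 3 were Dnmt1, Meg3, Rian, H19, Hspa1a, Axin2, Notum, Sp5, Oat, Slc1a2, Sdsl, Pklr, Scd1, Cyp7a1, Serpinc1, Dcn, Lrat, Cd8a, Pdcd1, H2-Eb1 and Sox9. Within run 1 they were H19, Hspa1a, Slc7a11, Hamp, Cd8a, Pdcd1 and H2-Eb1, and within run 2 H19, Hamp and Stab2.

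**Figure D5:**
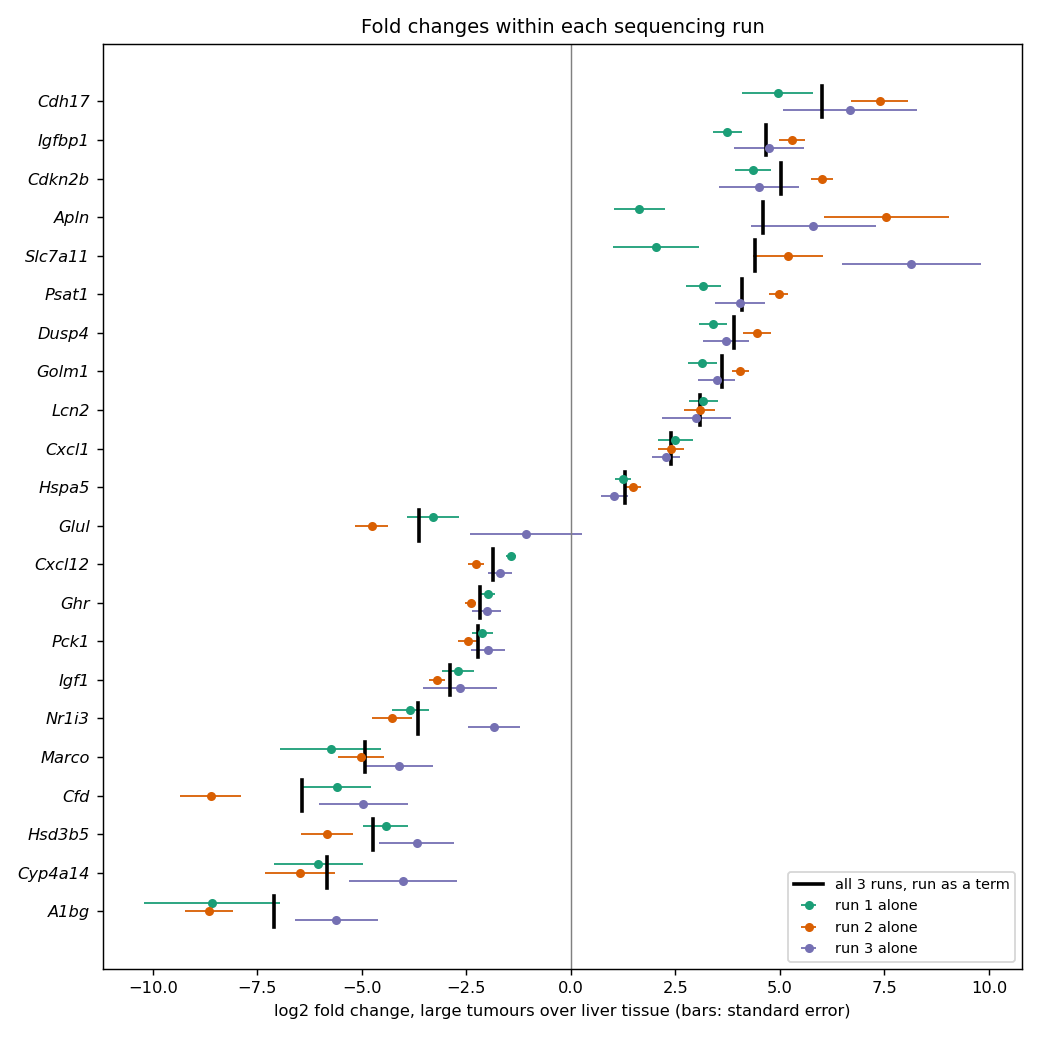
Points give the log2 fold change of large tumours over liver tissue for 22 genes within each of the 3 sequencing runs alone, with bars of 1 standard error, and black lines mark the fit of all runs with the run as a term. All 22 genes keep their direction in every run, and Glul in run 3 lies within its standard error of 0 on the side of a fall.

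Large tumours were set beside the 25 small tumours of the series, to see whether these genes also differ with size. Of 13913 genes tested 38 differed (0.273%), 13 higher and 25 lower in large tumours. Sinusoidal markers were among them: Wnt2 (log2 fold change -1.32 ± 0.27, adjusted p = 0.0331), the lectin gene Clec4g (log2 fold change -0.82 ± 0.19, adjusted p = 0.0402) and Stab2 (log2 fold change -0.48 ± 0.11, adjusted p = 0.0382) were lower in large than in small tumours. The Kupffer cell gene Folr2 was lower too (log2 fold change -1.13 ± 0.25, adjusted p = 0.0361), as was the male-biased gene Hsd3b5 (log2 fold change -2.24 ± 0.52, adjusted p = 0.0402). Fosl1, a MAPK-induced transcription factor gene, was higher (log2 fold change 1.17 ± 0.27, adjusted p = 0.0382). Without run 1, or without run 3, no gene passed in edgeR's test, although 1435 and 1427 genes had an unadjusted p under 0.05. DESeq2 called 192 genes, 66 of them higher and 126 lower in large tumours.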

How the data were processed

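Whole frozen pieces of liver tumour and liver tissue were profiled by RNA sequencing of polyadenylated RNA. The values are raw counts of reads per gene, made by the authors; per the submitters' processing notes the tools were FastQC 0.11.8, Trim Galore 0.6.4, HISAT2 2.1.0 and HTSeq 0.11.2 with the genome build GRCm38. Since the strand setting is not given in the sources used here, antisense and overlapping genes are uncertain. The 5 summary entries of the counter, which name no gene, held 47.8% to 64.8% of all entries per library (median 55.9%) and were left out. Alignments that were not unique were set apart among these entries, which lowers the counts of near-identical gene copies.

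Groups were taken from sample titles and the run from the start of each library name. Of the 37713 genes in the table, those with too few counts were left out by filterByExpr (minimum count 10, minimum total 15). The test was edgeR 4.0.16 (limma 3.58.1, R 4.3.3) with TMM factors, a run term and Benjamini-Hochberg adjustment over all genes tested. Large and small tumours were fitted separately in 50 libraries. Alternatives were RLE factors, library totals, DESeq2 1.42.0, no filter, a test against a 2-fold change, no run term, each run left out or alone, all 65 libraries, a replicate block, libraries high in S100a8 left out, and each library left out. Leaving out large tumours 16 and 20, or liver tissue 2 and 3, was chosen after seeing the data.

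The comparison and the 58 gene lists were chosen with earlier results of these data known. From each list, genes were named where called and expressed at 2 CPM or more on average in the higher group (up to 4 rises and 4 falls). Over all genes, the largest changes at 10 CPM or more were named, and 53 list members for their role after their values were seen. Some genes that the rule names are not reported here. Python 3.11.15 and matplotlib 3.10.9 made tables and figures. The test was also run on simulated counts with independent libraries, a single dispersion, no run effect and few changed genes. That check does not cover shared mice, run effects or changes in most genes.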

Additional observations from a re-analysis of the deposited data

How the results depend on the processing

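Counts of genes that differed between large tumours and liver tissue held within 1.5 times of 9982 in all but a pair of alternatives: 1570 genes passed a test against a 2-fold change (891 higher, 679 lower), and 4159 passed within run 3, where 3 liver tissue libraries remain. Leaving out each library gave 9814 to 10070, DESeq2 10073, RLE factors 10003 and no filter on low counts 11441 of more genes tested. The number of genes whose groups do not overlap, 594, became 1406 without run 1, 793 without run 2, 2377 without run 3, 1421 without large tumours 16 and 20 and 996 without liver tissue 2 and 3. Large against small tumours gave 38 genes, and 189 with library totals, 192 with DESeq2, 77 without the filter, 91 without the run term, 4 without run 2, 360 with all 65 libraries in the fit, and 0 without run 1, without run 3 (1435 and 1427 at an unadjusted p under 0.05) and against a 2-fold change (37 unadjusted). The causes were not tested. Title numbers 1 to 15 occur in both groups, but the deviations of same-numbered libraries correlated by -0.263 to 0.330 (over 0.1 in 7 of 15 pairs) and no tissue library was closest to the tumour of its own number. The numbers were therefore not taken as pairs, and the fit with a replicate block called 8974 genes (4533 higher, 4441 lower). Among 417 genes named by the rule or for their role, RLE factors changed no call. Log2 fold changes within run 3 reversed for Gsta2 (0.24), Gstm2 (0.40), Polr1b (0.076), Arntl (-0.12), Saa3 (0.93) and Hsph1 (0.043), and within run 1 for Pkm (-0.27) and Ndrg1 (-0.079). Genes with medians under 1 CPM, such as Cdh17 and Areg in liver tissue, rest on few reads per library there, so their fold changes are the least precise.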

Other observations

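Some genes with large changes belong to none of the groups above. Itih5, which encodes a hyaluronan-binding matrix protein, ran from 11.9 to 43.0 CPM (median 17.8) in liver tissue and from 105 to 441 CPM (median 314) in large tumours (log2 fold change 3.70 ± 0.22, adjusted p = 1.24e-16). Fhl3, a LIM domain gene of muscle, ran from 0.817 to 2.24 CPM (median 1.37) in liver tissue and from 5.06 to 34.6 CPM (median 20.3) in large tumours (log2 fold change 3.85 ± 0.22, adjusted p = 5.03e-17). Every large tumour lay above every liver tissue library for both. Kif5c, a kinesin gene best known from neurons, rose (medians 1.70 and 81.7 CPM, log2 fold change 4.70 ± 0.43), and so did Cacna1b, a neuronal calcium channel gene (medians 0.378 and 27.1 CPM, log2 fold change 4.88 ± 0.63). Large tumour 16 did not lie above all liver tissue for Kif5c, nor did 1, 4, 9, 10, 12 and 16 for Cacna1b. Dct, a gene of pigment synthesis, fell (medians 12.3 and 0 CPM, log2 fold change -5.81 ± 0.51), below all liver tissue in every tumour but 20 and 22.

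The 2 tumours that stood apart did so in different genes. Large tumour 16 had the highest Scd1 (23622 CPM) and Psat1 (112 CPM) of the 25, and the lowest Gpc3 (22.4 CPM), Igfbp1 (346 CPM) and Hspa5 (721 CPM). Large tumour 20 had the highest Glul (4187 CPM), Cyp7a1 (354 CPM) and Meg3 (186 CPM), and the lowest Psat1 (20.9 CPM). The labels give these tumours the same group as the other 23.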
